A study of Mus musculus with 6 samples.

Results

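Glycolysis and pentose phosphate genes were examined in CD45+ cells sorted from the ventral midbrain of Line 61 mice, by single-cell RNA sequencing. The set was chosen by symbol and held 33 of the 32285 genes in each matrix. These 33 symbols matched 34 matrix entries, because Aldoa was listed under 2 gene identifiers. ENSMUSG00000030695 carried 60209 unique molecular identifiers (UMIs, 1 per captured molecule) and ENSMUSG00000114515 carried 74. Values for Aldoa are those of ENSMUSG00000030695. Line 61 mice overexpress human wild-type α-synuclein from the Thy-1 promoter, and all mice were transgenic males injected in both striata at 12 to 15 weeks of age. The PBS group received PBS, the Monomer group received monomeric α-synuclein, and both remaining groups received α-synuclein preformed fibrils (PFF). During the last 4 of the 6 weeks after injection, the PFF + AZD1480 group was gavaged daily with 25 mg/kg of AZD1480, an inhibitor of the kinases JAK1 and JAK2, and the PFF + VH group received the DMSO vehicle. Each sample pooled 3 to 5 midbrains and each group was 1 library, so that library and treatment cannot be told apart. The cells of the PFF libraries carried antibody hashtags, 4 among PFF + VH cells and 5 among PFF + AZD1480 cells, and the hashtags served as replicates. The PBS and Monomer libraries have no replicate values, and their differences carry no test.

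Glycolysis turns glucose into pyruvate in a chain of cytosolic enzymes and yields ATP without oxygen. Glucose enters through GLUT transporters and is trapped by hexokinases; phosphofructokinase sets the pace of the upper steps, and the lower steps from glyceraldehyde-3-phosphate dehydrogenase to pyruvate kinase recover ATP and NADH. Lactate dehydrogenase exchanges pyruvate and lactate, monocarboxylate transporters carry lactate across the membrane, and the mitochondrial pyruvate carrier and pyruvate dehydrogenase feed pyruvate into oxidation. The pentose phosphate pathway branches from glucose 6-phosphate and supplies NADPH and ribose. Macrophages and microglia raise glycolysis on inflammatory activation, and activated T cells do so on clonal growth.

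The promoters of 4 members are shown, because the difference of these genes between AZD1480 and VH in microglia, described below, kept its call under every alternative that was run. Each sequence is the 250 bases before the RefSeq transcription start in GRCm38.p6, written 5′ to 3′ on the strand of the gene. The windows are chr6:125165774-125166023 on the minus strand for Gapdh, chr4:150236458-150236707 on the plus strand for Eno1, chr7:46845554-46845803 on the plus strand for Ldha and chr6:142507958-142508207 on the minus strand for Ldhb. None of them overlapped an exon of the GENCODE annotation, and those of Gapdh and Ldha lay inside the span of a longer model of the same gene. Capitals mark every match, on either strand, to ACGTG or GCGTG, the core letters of a hypoxia response element, to CACGTG, an E-box that contains ACGTG, or to TTCNNNGAA, the spaced palindrome of STAT factors.
Gapdh: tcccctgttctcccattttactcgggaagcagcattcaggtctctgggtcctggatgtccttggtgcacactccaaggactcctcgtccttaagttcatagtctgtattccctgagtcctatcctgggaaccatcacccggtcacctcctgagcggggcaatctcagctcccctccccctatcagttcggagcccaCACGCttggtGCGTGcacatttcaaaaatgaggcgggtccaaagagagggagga
Eno1: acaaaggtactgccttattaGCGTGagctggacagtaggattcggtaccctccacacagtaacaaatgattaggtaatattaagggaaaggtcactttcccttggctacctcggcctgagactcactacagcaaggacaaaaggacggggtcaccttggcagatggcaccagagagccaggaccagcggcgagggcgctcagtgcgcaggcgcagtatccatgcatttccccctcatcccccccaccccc
Ldha: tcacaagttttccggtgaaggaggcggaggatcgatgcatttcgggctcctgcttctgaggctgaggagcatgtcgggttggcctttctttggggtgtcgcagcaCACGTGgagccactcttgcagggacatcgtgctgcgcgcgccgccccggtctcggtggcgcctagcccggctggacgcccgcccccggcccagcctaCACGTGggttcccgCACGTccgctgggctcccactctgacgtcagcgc
Ldhb: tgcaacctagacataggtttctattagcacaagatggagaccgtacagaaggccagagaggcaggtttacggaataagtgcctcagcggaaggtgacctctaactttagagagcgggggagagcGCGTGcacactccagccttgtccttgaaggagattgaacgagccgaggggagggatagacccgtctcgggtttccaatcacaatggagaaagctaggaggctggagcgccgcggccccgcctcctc
Ldha held ACGTG at 5 places, 4 of them in its 2 CACGTG matches, which began 145 and 48 bases before the start. Gapdh held GCGTG at 54 and 44 bases before the start, Eno1 at 230 and Ldhb at 126. Promoters were found for 32 of the 33 members, all but Slc2a3. ACGTG was present in 13 of the 32 (40.6%), against 16.6% of all 32851 promoter windows of this length. GCGTG was present in 20 (62.5%, against 28.2%) and CACGTG in 4 (12.5%, against 6.02%). TTCNNNGAA had no match in the 32 windows, and 7.02% of all windows held it. Each member had a single window, whereas some genes had several among all windows, and base composition was not matched. These shares describe letters in a window and not binding.

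The 4 libraries held 99658216 to 116440449 UMIs over 13813 to 34828 barcodes. The PFF + VH library had the most barcodes and the fewest UMIs per kept cell, with a median of 2306 against 6616 to 7028 in the other libraries. Cells were placed in a class by UMIs of marker genes, with at least 3 UMIs from at least 2 markers of a class and more than from all other classes together. This gave 11875 to 31225 microglia, 191 to 308 border macrophages and 163 to 327 lymphocytes per library, whatever their hashtags, and library values are over all of them. In their own class, the summed markers reached 6750 to 8305 CPM (UMIs of a gene per 1000000 UMIs of the class) for microglia, 7886 to 10926 for border macrophages and 7378 to 10164 for lymphocytes. Microglial transcripts were also present in the other classes, at 24.7% to 38.0% of the microglial level in border macrophages and 4.89% to 22.8% in lymphocytes, and in both classes the share was highest in PFF + VH. By the leading marker UMIs, 163 lymphocytes of PFF + VH counted as T, 129 as NK and 48 as B cells, against 113, 19 and 31 in PFF + AZD1480, with a tied cell counted under each type, so that the counts can exceed the class. A single hashtag was assigned to 52.0% of kept cells in PFF + VH and to 81.0% in PFF + AZD1480, and pairs of libraries shared 51 to 163 barcodes (0.329% to 1.05%). Cells with more than 1 hashtag, which were left out of the hashtag values, made up 18.2% and 30.7% of the border macrophages and 22.0% and 40.5% of the lymphocytes of PFF + VH and PFF + AZD1480.

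In microglia the most abundant members were Gapdh and Ldhb, followed by Hk2, Mpc1 and Pfkfb3. The level of Gapdh, glyceraldehyde-3-phosphate dehydrogenase, was 305 CPM in the PBS library, 311 in the Monomer library, and 469 and 346 in the PFF + VH and PFF + AZD1480 libraries. Ldhb, the lactate dehydrogenase subunit that favors lactate oxidation, was at 327, 338, 359.7 and 288 CPM in the same order. PFF + VH had the highest level of both genes. The hexokinase Hk2 was at 204, 216, 263 and 236 CPM. Pfkfb3, which makes the allosteric activator of phosphofructokinase, was at 188, 224, 209.6 and 239 CPM, and Mpc1, a subunit of the mitochondrial pyruvate carrier, at 209, 232, 229 and 210.0. Taldo1, transaldolase, was the most abundant of the 4 pentose phosphate members, at 112 to 132 CPM over the 4 libraries, ahead of Tkt (transketolase, 73.0 to 79.1), Pgd (6-phosphogluconate dehydrogenase, 48.7 to 55.0) and G6pdx (the entry enzyme, 21.2 to 25.2). The lowest levels were those of the phosphofructokinase genes Pfkp (1.07 to 1.74 CPM) and Pfkm (2.59 to 3.51 CPM). The 33 members together took 2607, 2731, 3113 and 2806 CPM in that order. The counting error behind these levels is small in microglia, with a 95% Poisson interval of 464.7 to 473.2 CPM for Gapdh in PFF + VH, and it does not cover variation between animals. In border macrophages the summed level was 1802 to 2005 CPM and in lymphocytes 2319 to 2596 CPM. Gapdh led there too, and Ldhb was far lower than in microglia.

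**Figure D1:**
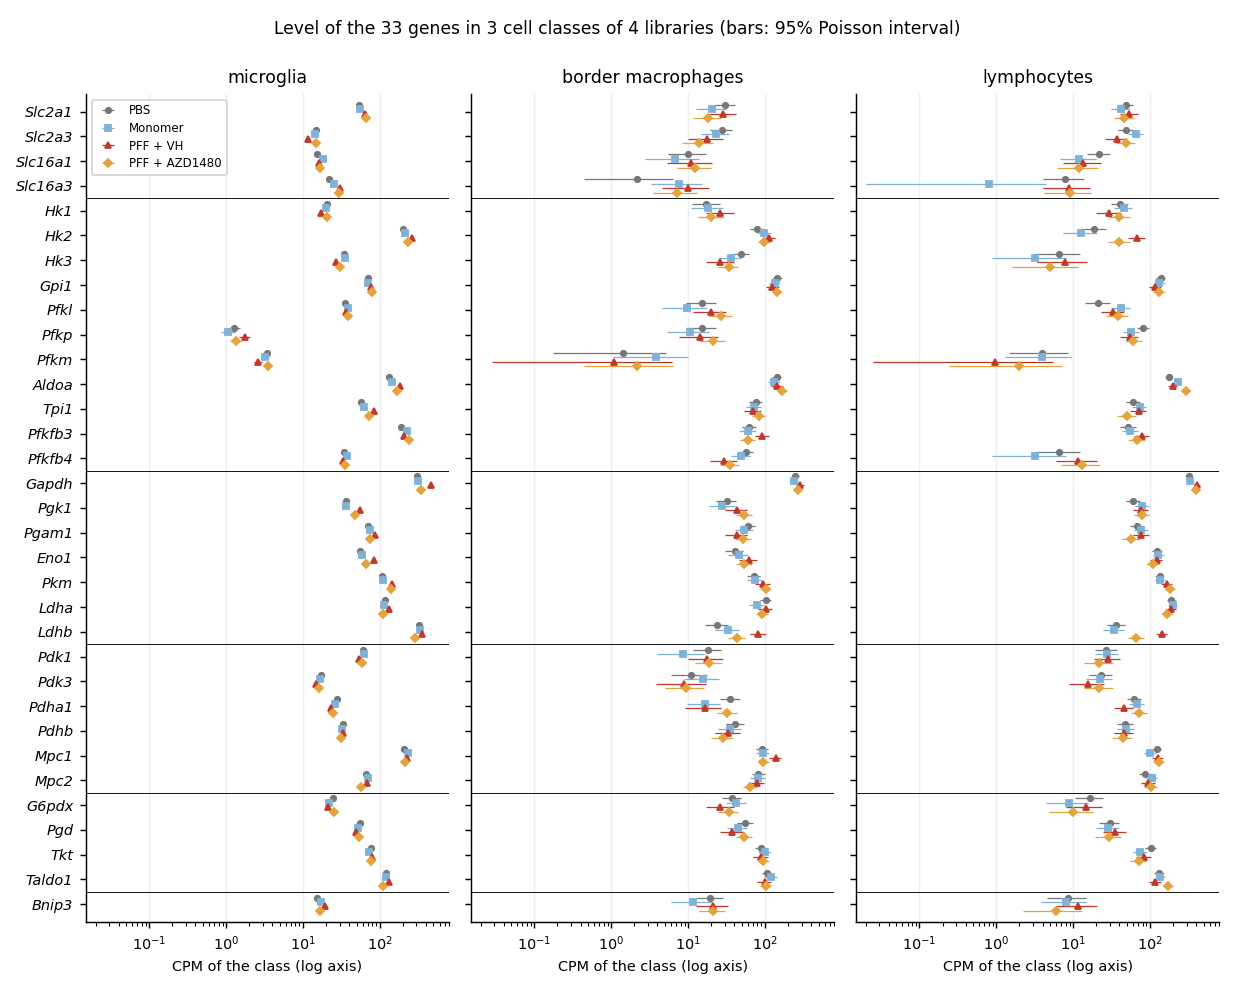
Level of each of the 33 genes in CPM (log axis) in microglia, border macrophages and lymphocytes, with 1 point for each of the 4 libraries and bars for the 95% Poisson interval. Gapdh is near the top in every class, Ldhb falls from the upper end in microglia to a lower level in the other classes, and Pfkp is near 1 CPM in microglia and above 50 CPM in lymphocytes.

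Border macrophages were compared with microglia of the same hashtags, to ask how cells with border macrophage markers differ from microglia in these genes. The class rests on marker UMIs, and neither residence nor location was measured. A stricter class rule asked for at least 5 marker UMIs and more than 80% of the UMIs of all class markers. It was met by 84 of 308 border macrophages in PFF + VH and 134 of 296 in PFF + AZD1480. Lower levels in border macrophages were the main pattern, with Ldhb, the glucose transporter gene Slc2a1, the lactate exporter gene Slc16a3 and the pyruvate dehydrogenase kinase gene Pdk1 furthest apart among the members tested over all hashtags. Of 31 members tested, 14 passed the threshold of 0.05 after adjustment over all genes, 1 higher and 13 lower in border macrophages, against a background of 28.5% of all genes tested (9.81% higher and 18.7% lower). The members' median log2 difference was −0.34, and that of all genes was −0.16. Pfkp and Pfkm did not pass the filter on low counts over all hashtags. Pfkp, a phosphofructokinase gene, was nevertheless above its microglial level of 1.07 to 1.74 CPM in all 4 libraries, at 10.6 to 20.9 CPM in border macrophages. In the hashtags it had 0 to 12 UMIs in border macrophages. Within single libraries, Pfkp passed that filter among the PFF + VH hashtags, where it had 1 to 3 UMIs per border macrophage hashtag. Among the PFF + AZD1480 hashtags it did not pass. No fold is given for so few counts. By role, 2 of 4 transport genes were lower, 1 of 9 upper glycolytic genes was higher and 3 lower, 5 of 7 lower glycolytic genes were lower, 3 of 6 genes of pyruvate entry were lower, and none of the 4 pentose phosphate genes was called, with adjusted p-values from 0.0934 to 0.771 and 1 of the 4 at an unadjusted p under 0.05 (edgeR).

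Among the 9 hashtags, Ldhb ranged from 8.97 CPM through a median of 40.9 to 97.7 CPM in border macrophages and from 268 through 340.2 to 396.6 CPM in microglia. These ranges do not overlap, and Ldhb was lower by 2.85 on the log2 scale (SE 0.18, edgeR quasi-likelihood test, adjusted p = 2.83e-24, lower in 9 of 9 hashtags). The glucose transporter gene Slc2a1 (GLUT1) was at 0, 14.8 and 26.1 CPM (lowest, median, highest hashtag) in border macrophages and at 56.6, 66.1 and 80.8 CPM in microglia. Its log2 difference was −2.13 (SE 0.27, adjusted p = 1.91e-10), whereas the other glucose transporter gene, Slc2a3, had a difference of 0.07 (SE 0.38, adjusted p = 0.926). The lactate exporter gene Slc16a3 (MCT4) was at 0, 8.002 and 14.8 CPM against 28.2, 30.6 and 34.2 CPM, a log2 difference of −1.91 (SE 0.36, adjusted p = 8.69e-06). Both transporters were lower in 9 of 9 hashtags, with no overlap of the ranges. The share of all genes without overlap between classes was not computed. Ranges and counts of hashtags therefore describe each gene and do not set the members apart. Pdk1, a kinase that shuts pyruvate dehydrogenase, was at 4.92, 19.5 and 32.0 CPM against 46.8, 58.3 and 64.9 CPM, and its log2 difference was −1.76 (SE 0.26, adjusted p = 4.74e-08). Pfkfb3 was at 40.2, 71.7 and 127.9 CPM against 186, 230.4 and 255 CPM, with a log2 difference of −1.68 (SE 0.17, adjusted p = 2.22e-14). For both genes every border macrophage value lay under every microglial value. Hk2 was at 71.6, 127.9 and 143 CPM against 217.5, 244 and 299.8 CPM, a log2 difference of −1.29 (SE 0.15, adjusted p = 1.68e-11). Mpc1 was at 51.3, 95.3 and 155 CPM against 170.3, 224 and 242 CPM, a log2 difference of −1.08 (SE 0.15, adjusted p = 2.60e-09).

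Gpi1, glucose-6-phosphate isomerase, was the member called higher, at 97.7, 128 and 188 CPM in border macrophages against 71.7, 77.5 and 86.1 CPM in microglia. It was higher in 9 of 9 hashtags (log2 difference 0.78, SE 0.15, adjusted p = 9.01e-06). The lower glycolytic genes Pgam1, Pkm, Gapdh and Ldha and the phosphofructokinase gene Pfkl were lower by 0.44 to 0.80 on the log2 scale. Pdk3, another pyruvate dehydrogenase kinase gene, was at 0, 8.002 and 17.9 CPM against 14.4, 16.3 and 20.3 CPM (log2 difference −1.13, SE 0.44, adjusted p = 0.0419). Leaving out 1 hashtag ended the call of Pfkl (without PFF + VH hashtag 2 or 4 or PFF + AZD1480 hashtag 1 or 4, adjusted p = 0.0707 to 0.138), of Ldha (without PFF + VH hashtag 1 or 2 or PFF + AZD1480 hashtag 2 or 5, 0.0610 to 0.102) and of Pdk3 (without PFF + VH hashtag 1, 2 or 4 or PFF + AZD1480 hashtag 1, 2 or 3, 0.0584 to 0.148). These 3 calls were also lost by DESeq2 and by RLE scaling, with adjusted p-values up to 0.373, 0.358 and 0.518 over the other alternatives. Within each library alone, all 14 differences kept their direction, but not all were called. These 14 had been picked by the fit over the same hashtags, so their direction in each library is not an independent result. The call of Pgam1 ended there, with a log2 difference of −0.49 (adjusted p = 0.176) among the AZD1480 hashtags and of −1.23 (adjusted p = 2.82e-04) among the VH hashtags. PFF + AZD1480 hashtag 3 held 11 border macrophages and 38967 UMIs, so that 1 UMI there equals 25.7 CPM.

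Lymphocytes were compared with microglia in the 8 hashtags that held at least 10 lymphocytes. Here the platelet-type phosphofructokinase gene Pfkp stood apart, and the largest differences in the other direction were in Hk2, Hk3, Pfkfb4 and Ldhb. Of these, Hk3 and Pfkfb4 had few UMIs in lymphocytes, as given below. Of 33 members tested, 22 passed the threshold, 8 higher and 14 lower in lymphocytes, against a background of 47.0% of all genes (17.8% higher and 29.2% lower). The members' median log2 difference was −0.30, and that of all genes was −0.21. By role, 1 of 4 transport genes was higher and 2 lower, 2 of 11 upper glycolytic genes were higher and 5 lower, 3 of 7 lower glycolytic genes were higher and 2 lower, 2 of 6 genes of pyruvate entry were higher and 2 lower, and 2 of 4 pentose phosphate genes were lower. Bnip3, a mitophagy receptor gene induced by hypoxia, was lower.

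Pfkp was at 37.9, 70.6 and 92.9 CPM (lowest, median, highest hashtag) in lymphocytes and at 0.934, 1.32 and 2.20 CPM in microglia. The groups were far apart, with a log2 difference of 5.31 (SE 0.33, adjusted p = 2.04e-18), which is 39.6-fold. Hk2 was at 17.7, 41.0 and 92.9 CPM in lymphocytes against at least 217.5 CPM in every microglial hashtag, a log2 difference of −2.58 (SE 0.20, adjusted p = 2.01e-15). Ldhb was at 17.7, 91.2 and 143 CPM against at least 268 CPM, a log2 difference of −2.17 (SE 0.19, adjusted p = 2.30e-13). Hk3, a hexokinase gene of myeloid cells, was at 0, 6.77 and 10.4 CPM in lymphocytes and at 25.2, 28.1 and 32.4 CPM in microglia (log2 difference −2.44, SE 0.43, adjusted p = 5.55e-06). Pfkfb4, like Pfkfb3 a phosphofructokinase activator gene, was at 0, 8.47 and 21.9 CPM against 29.8, 34.5 and 39.8 CPM (log2 difference −2.33, SE 0.41, adjusted p = 4.16e-06). Pfkfb3 was at 17.1, 73.9 and 98.4 CPM against at least 186 CPM (log2 difference −1.89, SE 0.19, adjusted p = 1.55e-11). Slc16a3 was at 0, 4.48 and 27.3 CPM against at least 28.2 CPM (log2 difference −1.90, SE 0.41, adjusted p = 1.15e-04). These regulators and the lactate exporter were lower in 8 of 8 hashtags. As for border macrophages, such counts have no share of all genes beside them and describe each gene only. UMIs were few, at 0 to 2 per lymphocyte hashtag for Hk3, 0 to 4 for Pfkfb4 and 0 to 5 for Slc16a3. Slc16a1 (MCT1), another lactate transporter gene, was at 0, 6.77 and 17.1 CPM against 14.1, 17.1 and 22.4 CPM (log2 difference −1.69, SE 0.47, adjusted p = 0.00268). In each lymphocyte hashtag Slc16a1 had 0 to 2 UMIs. In the PBS library, which has no hashtags, it was at 21.8 CPM in lymphocytes and 15.3 CPM in microglia. Its order there was the opposite.

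The other members higher in lymphocytes were Slc2a3 (GLUT3; log2 difference 1.60), the pyruvate dehydrogenase subunit gene Pdha1 (1.33), Gpi1 (0.59), Mpc2 (0.56), Eno1 (enolase, 0.46), Pgk1 (phosphoglycerate kinase, 0.44) and Ldha (0.44). The other members lower were Pdk1 (−1.29), Bnip3 (−1.15), Mpc1 (−1.06), Pgd (−0.995), G6pdx (−0.91), Tpi1 (triose phosphate isomerase, −0.80) and Pgam1 (phosphoglycerate mutase, −0.57). Each gene of the former group was higher in 8 of 8 hashtags, and of the latter group Pdk1, Mpc1, Pgd and Pgam1 were lower in 8 of 8. In the libraries without hashtags the order was the opposite for Tpi1, at 106.5% of its microglial level in PBS and 117% in Monomer, and for Pgam1 in Monomer, at 104.7%. Calls that ended without 1 hashtag were those of Pgk1 (PFF + VH hashtag 4 or PFF + AZD1480 hashtag 1, 2, 4 or 5, adjusted p = 0.0502 to 0.167), Pgam1 (PFF + AZD1480 hashtag 4, 0.0501), G6pdx (PFF + VH hashtag 3 or PFF + AZD1480 hashtag 1, 2 or 4, 0.0655 to 0.185), Bnip3 (PFF + VH hashtag 2 or 3, 0.0581 to 0.0596) and Mpc2 (PFF + AZD1480 hashtag 2, 0.0567). Eno1 and Ldha were not called with the stricter class rule, with MULTIseqDemux hashtag calls, without the filter on low counts or within either library alone (adjusted p up to 0.221 and 0.462). Gpi1 was not called with the stricter class rule or within PFF + VH (up to 0.147), nor Slc16a1 within PFF + AZD1480 (0.131). The 22 were likewise picked by the fit over the same hashtags, so their direction in each library is not an independent result. Within each library alone all 22 kept their direction, but not all were called. G6pdx had a log2 difference of −0.32 (edgeR adjusted p = 0.638) among the VH hashtags and of −2.25 (adjusted p = 0.00723) among the AZD1480 hashtags.

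**Figure D2:**
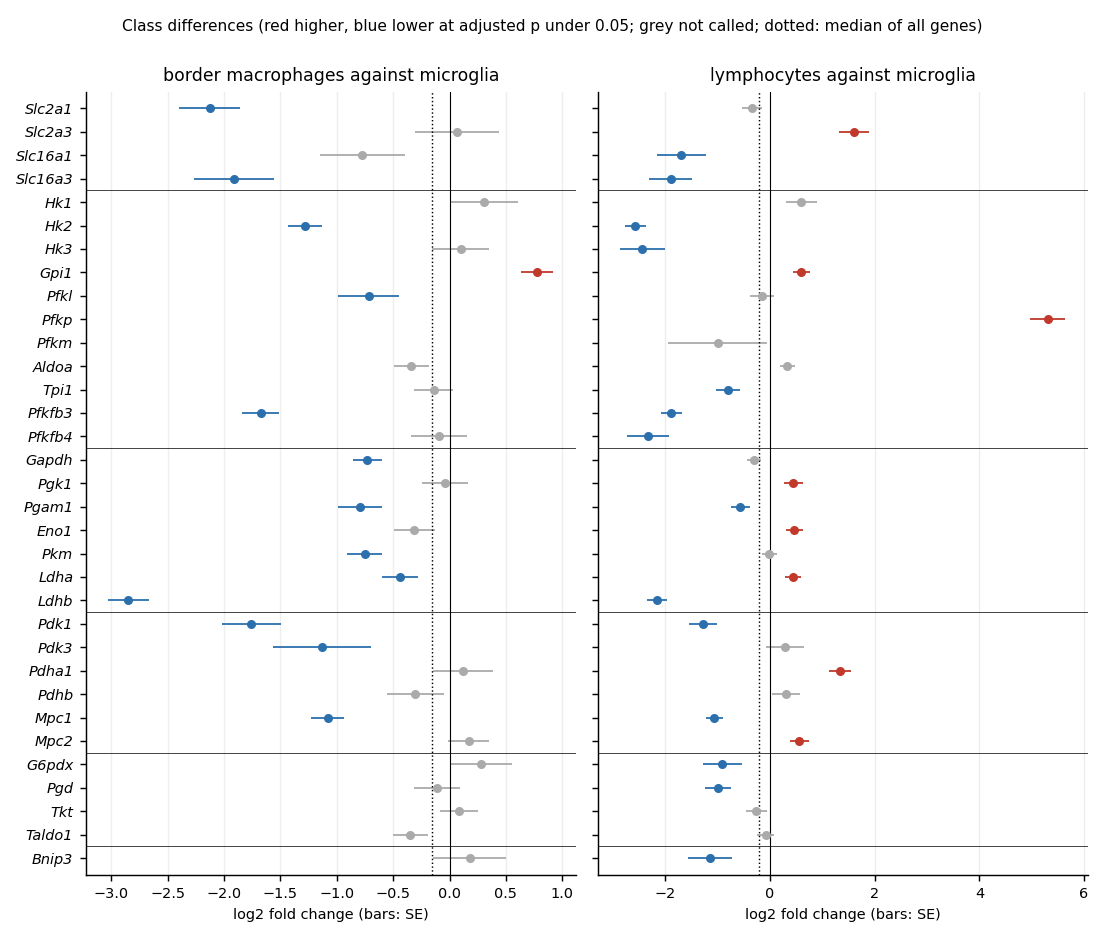
Log2 difference from microglia of each member in border macrophages and in lymphocytes, with bars of 1 standard error from the edgeR fit over hashtags, red for called higher, blue for called lower, grey for not called, and a dotted line at the median of all genes. Ldhb lies at −2.85 in border macrophages and −2.17 in lymphocytes, and Pfkp at 5.31 in lymphocytes.

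Several steps are encoded by more than 1 gene, and the classes differed in which gene was the more abundant. UMIs were compared between genes without scaling by gene length. The part of length in these levels was not tested. Among the hexokinase genes, Hk2 was the highest in microglia (204 to 263 CPM over the 4 libraries, with Hk1 at 17.0 to 20.6 and Hk3 at 26.8 to 35.1) and in border macrophages (78.0 to 113 CPM, with Hk1 at 17.3 to 26.4 and Hk3 at 26.4 to 49.1). In lymphocytes Hk1 was at 29.2 to 45.3 CPM and Hk2 at 12.7 to 67.1, and Hk1 was above Hk2 in PBS and Monomer, below it in PFF + VH and level with it, at 40.0 CPM, in PFF + AZD1480. Among the 3 phosphofructokinase genes, Pfkl was the highest in microglia (35.0 to 39.0 CPM) and Pfkp in lymphocytes (54.4 to 80.6 CPM, with Pfkl at 21.1 to 41.4), whereas in border macrophages Pfkl (9.67 to 26.7) and Pfkp (10.6 to 20.9) overlapped. Pfkm stayed under 4 CPM in every class and library. Ldhb exceeded Ldha in microglia (288 to 359.7 against 110.5 to 132.5 CPM), and Ldha exceeded Ldhb in every library in border macrophages (78.3 to 103 against 23.8 to 81.4) and in lymphocytes (169 to 197 against 34.2 to 143). For glucose uptake, Slc2a1 exceeded Slc2a3 in microglia (54.5 to 66.4 against 11.8 to 14.97 CPM), and their ranges overlapped in border macrophages (18.0 to 30.3 and 13.7 to 27.5) and lymphocytes (41.4 to 53.4 and 36.9 to 65.2). Slc16a3 exceeded Slc16a1 in microglia (22.1 to 30.8 against 15.3 to 18.3 CPM), whereas in the other classes Slc16a3 was at most 9.90 CPM. Pdk1 exceeded Pdk3 in microglia (54.1 to 61.7 against 15.02 to 17.2 CPM), while in border macrophages Pdk1 was at 8.70 to 18.8 and Pdk3 at 8.80 to 15.5 CPM. Pfkfb3 exceeded Pfkfb4 in every class and library, and Pfkfb4 was at 29.7 to 56.4 CPM in border macrophages and at most 12.99 CPM in lymphocytes.

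Over the 4 libraries, but not over the hashtags of PFF + AZD1480, Ldhb and Hk2 in lymphocytes had the order of the microglial markers. There the summed microglial markers were at 6.01%, 4.89%, 22.8% and 13.3% of their microglial level in the PBS, Monomer, PFF + VH and PFF + AZD1480 libraries. Ldhb was at 11.1%, 10.1%, 39.7% and 22.9% of its microglial level, and Hk2 at 9.08%, 5.89%, 25.5% and 16.9%. The order of the libraries was the same for the markers and both genes. It was also the same for Pfkfb3, at 27.76%, 24.55%, 37.55% and 28.01%. Other members lower in lymphocytes or plotted with them had another order. Mpc1 was at 58.2%, 43.6%, 54.7% and 61.9%, Slc2a1 at 88.5%, 73.9%, 82.1% and 69.25%, and Pdk1 at 44.9%, 45.1%, 52.1% and 37.5%. These are shares over all cells of a class, and more than 1 hashtag was called in 22.0% of lymphocytes after PFF with VH and in 40.5% after PFF with AZD1480. In lymphocytes with a single hashtag the markers were at 946 to 1580 CPM and 531 to 700.1 CPM, against 1538 and 899 CPM over all lymphocytes of the 2 libraries. In hashtags 1 to 4 of PFF + VH they were at 1495, 1119, 1580 and 946 CPM. Ldhb was at 129, 143, 137 and 62.4 CPM there and Hk2 at 56.6, 37.1, 92.9 and 36.4 CPM. Hk2 kept the marker order and Ldhb did not. In hashtags 1, 2, 4 and 5 of PFF + AZD1480 the markers were at 540, 700.1, 631 and 531 CPM. Ldhb was at 47.3, 17.7, 31.3 and 119.9 CPM there and Hk2 at 28.4, 17.7, 44.8 and 68.5 CPM. Neither gene kept the marker order. In border macrophages the markers were at 26.2%, 24.7%, 38.0% and 30.3%, and Ldhb was at 7.29%, 9.72%, 22.6% and 15.01%, under the marker share in every library. Hk2 was at 38.3%, 45.7%, 43.0% and 41.5% of the microglial level, in another order than the markers. Gapdh was at 61.2% to 82.1%. Gpi1, at 161% to 209.9%, was above the microglial level in border macrophages, as was Pfkp, at 821% to 1548% there and at 3125% to 6369% in lymphocytes. The part of microglial RNA in the Ldhb and Hk2 values of the other classes was not tested.

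**Figure D3:**
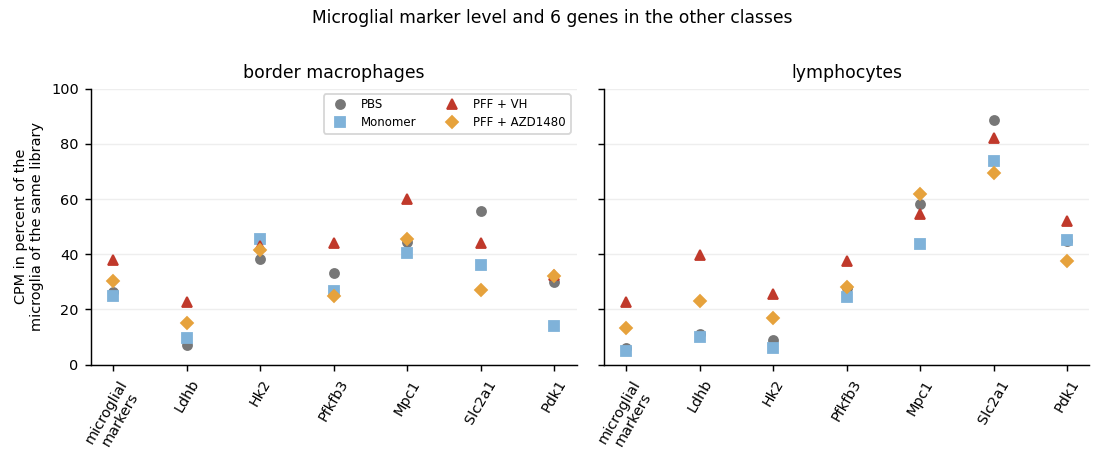
Level of Ldhb, Hk2, Pfkfb3, Mpc1, Slc2a1 and Pdk1 in border macrophages and lymphocytes as a percentage of their level in microglia of the same library, plotted with that of the summed microglial markers in the 4 libraries. In lymphocytes the marker share rises from 4.89% in Monomer to 22.8% in PFF + VH, and Ldhb from 10.1% to 39.7%. Mpc1, Slc2a1 and Pdk1 do not keep the library order of the markers there.

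The comparison of PFF + AZD1480 with PFF + VH asks how JAK1/2 inhibition after fibril injection bears on these genes. Over all microglia with a single hashtag, most genes from Aldoa to Ldha in the chain were lower with AZD1480, led by Gapdh, Eno1 and Ldha, and Ldhb was lower as well. In microglia of 2000 to 6000 UMIs, given below, Gapdh, Eno1, Ldha and Ldhb were called and the other members were not. Of 33 members tested, 14 passed the threshold, 3 higher and 11 lower, against a background of 26.7% of all genes (12.2% higher and 14.5% lower). The members' median log2 difference was −0.11, and that of all genes was −0.003. Of the 8 genes Aldoa, Tpi1, Gapdh, Pgk1, Pgam1, Eno1, Pkm and Ldha, 7 were lower, and Pkm (pyruvate kinase) had a log2 difference of −0.13 (adjusted p = 0.198). Together these 8 genes took 1270 CPM ± 29.1 (SD, n = 4 hashtags) in PFF + VH and 1017 ± 81.9 (n = 5) in PFF + AZD1480, with 879 CPM in the PBS library and 909.7 in the Monomer library. Gapdh alone took 486 and 345 CPM of these hashtag means. By role, 1 of 4 transport genes was higher, and 1 of 11 upper glycolytic genes was higher and 3 lower. Lower in AZD1480 were 6 of 7 lower glycolytic genes and 1 of 6 genes of pyruvate entry. Of 4 pentose phosphate genes, 1 was higher and 1 lower. Groups of hashtags did not overlap for 12 members, 3 higher and 9 lower, against a background of 24.0% (14.1% higher and 9.89% lower).

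Gapdh was at 485.1, 485.3, 492.5 and 482.6 CPM in the 4 hashtags of PFF + VH and at 345.2, 385.9, 379, 315.5 and 298.9 CPM in the 5 of PFF + AZD1480. The vehicle values lay close together and all above those with AZD1480, and the log2 difference was −0.55 (SE 0.08, edgeR adjusted p = 4.52e-04). Eno1 was at 84.3, 83.0, 88.6 and 86.1 CPM in PFF + VH and at 64.0, 71.5, 69.8, 66.0 and 61.6 CPM in PFF + AZD1480, a log2 difference of −0.41 (SE 0.05, adjusted p = 2.90e-04). Ldha was at 127, 136, 139 and 139 CPM against 109, 113, 112, 109 and 99.7 CPM, a log2 difference of −0.37 (SE 0.06, adjusted p = 6.15e-04). Ldhb was at 358, 356, 345 and 397 CPM against 295, 281, 340.2, 268 and 283 CPM, a log2 difference of −0.36 (SE 0.07, adjusted p = 0.00309). In each of these genes, whose promoters are printed above, every vehicle value exceeded every AZD1480 value, for Ldhb by the least, with PFF + AZD1480 hashtag 3 close to the lowest vehicle value. Mpc2, the other subunit of the pyruvate carrier, was at 70.6, 65.7, 66.8 and 70.5 CPM against 51.7, 56.6, 57.8, 58.8 and 57.7 CPM (log2 difference −0.33, SE 0.04, adjusted p = 3.17e-04). Tpi1 was at 84.8, 83.7, 85.5 and 91.8 CPM against 61.8, 76.6, 80.2, 74.4 and 65.7 CPM (log2 difference −0.32, SE 0.07, adjusted p = 0.00683). Taldo1 was at 132, 136, 138 and 129 CPM against 108, 118, 102, 112 and 117 CPM (log2 difference −0.31, SE 0.05, adjusted p = 9.80e-04). These 3 genes did not overlap between the groups either. Slc2a3 was higher with AZD1480, at 11.9, 9.5, 12.2 and 11.7 CPM in PFF + VH against 12.9, 14.3, 13.5, 17.1 and 16.8 CPM (log2 difference 0.34, SE 0.10, adjusted p = 0.0270).

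The remaining called members were Pgam1 (log2 difference −0.31), Pgk1 (−0.26), Aldoa (−0.22) and Hk2 (−0.22), which were lower, and Hk1 (0.25) and G6pdx (0.25), which were higher. Values of Aldoa and Hk2 overlapped between the groups. Leaving out 1 hashtag ended the calls of Hk1 (PFF + VH hashtag 1 or 4, adjusted p = 0.0522 to 0.0613), Hk2 (PFF + VH hashtag 4, 0.0553), Aldoa (PFF + VH hashtag 2 or 3 or PFF + AZD1480 hashtag 1, 4 or 5, 0.0756 to 0.119), Pgk1 (PFF + VH hashtag 3 or PFF + AZD1480 hashtag 1 or 5, 0.0503 to 0.0757), Slc2a3 (PFF + VH hashtag 1, 2 or 4 or PFF + AZD1480 hashtag 4, 0.0502 to 0.0696) and G6pdx (any of 8 of the 9 hashtags, 0.0543 to 0.113). Hk1, Slc2a3 and G6pdx were not called with MULTIseqDemux hashtag calls either, nor Hk1 and Slc2a3 with hashtag number as a block.

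Depth and the share of Gm42418, a transcript that overlaps ribosomal RNA, moved with the treatment. Microglia with a single hashtag had a median of 3025 UMIs with VH and 6885 with AZD1480, and Gm42418 was at 11021 to 11878 CPM in the hashtags of PFF + VH and at 8268 to 8589 CPM in those of PFF + AZD1480. The summed mitochondrial genes, at 11705 to 13917 CPM and 9500.4 to 10795 CPM, and the summed markers of monocytes and dendritic cells, at 15.8 to 22.8 CPM and 8.92 to 15.2 CPM, were also lower in every hashtag with AZD1480, and their part in the result was not tested. The comparison was repeated in microglia of 2000 to 6000 UMIs, a window chosen after seeing the data. All microglia of the libraries in this window, with or without a hashtag, had medians of 3222 and 4227 UMIs, while the test used those with a single hashtag. There 4 of 32 members were called, all lower with AZD1480, against a background of 9.11% of all genes. Their log2 differences were −0.38 for Gapdh (adjusted p = 0.0137), −0.34 for Eno1 (0.0107), −0.39 for Ldha (0.0126) and −0.27 for Ldhb (0.0339). Over all microglia of each library in the window, Gapdh was at 263 CPM after PBS, 277.5 after monomer, 477 after PFF with VH and 393 after PFF with AZD1480. The PFF libraries kept the higher levels, and PFF + AZD1480 stood between the Monomer and PFF + VH libraries. Depth in the window was not equal, with medians of 4662 UMIs after PBS and 4702 after monomer, both above the PFF medians. The other 10 of the 14 members were not called in this window, among them 4 of the 7 genes from Aldoa to Ldha called over all microglia. Over all microglia of the window Aldoa was at 184.7 CPM with VH and 183 with AZD1480 (log2 difference over hashtags −0.10, adjusted p = 0.498) and Pgk1 at 52.3 and 54.5 CPM (−0.005, adjusted p = 0.988), while Tpi1 was at 85.3 and 78.5 CPM (−0.25, adjusted p = 0.125) and Pgam1 at 85.7 and 79.4 CPM (−0.18, adjusted p = 0.122). Pkm was at 139 and 147 CPM (−0.03, adjusted p = 0.865). The log2 differences of Hk1 (0.27, adjusted p = 0.227), Slc2a3 (0.28, adjusted p = 0.323) and G6pdx (0.28, adjusted p = 0.0981) were about as large in the window as over all microglia, while those of Hk2 (−0.16, adjusted p = 0.215), Mpc2 (−0.15, adjusted p = 0.196) and Taldo1 (−0.11, adjusted p = 0.386) were smaller.

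**Figure D4:**
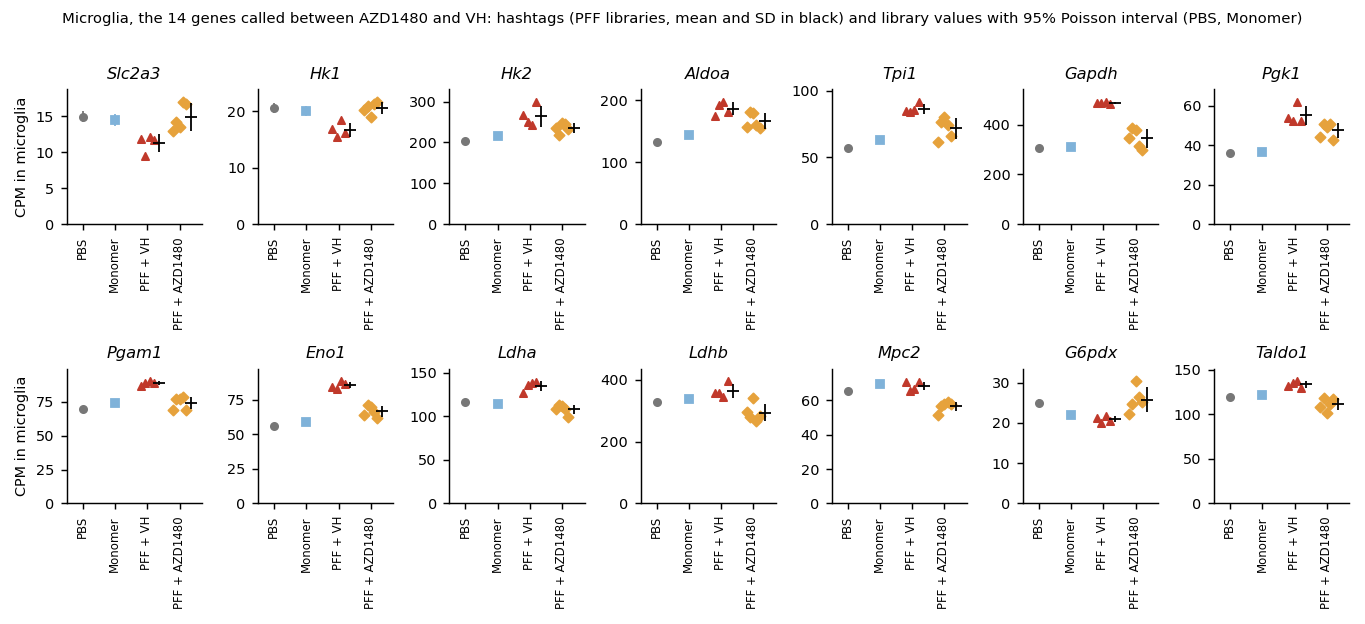
Level in microglia of the 14 members called between PFF + AZD1480 and PFF + VH, in CPM (axes from 0), with 1 point per hashtag (4 and 5), the group mean and SD in black, and the PBS and Monomer libraries as single points with a 95% Poisson interval. For Gapdh the PFF + VH hashtags lie between 482.6 and 492.5 CPM, all above the 298.9 to 385.9 CPM of PFF + AZD1480.

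In border macrophages 13 members had enough counts to be tested between PFF + AZD1480 and PFF + VH. None was called by edgeR, against a background of 1.08% of all genes, and none had an unadjusted p under 0.05, against 315 of 2769 of all genes. The lowest p was that of Pfkfb3, with a log2 difference of −0.55 (SE 0.33, adjusted p = 0.546). In lymphocytes 16 members were tested and none was called by edgeR, against a background of 3.33%, while 3 had an unadjusted p under 0.05, as did 445 of 2887 of all genes. Ldhb was at 129, 143, 137 and 62.4 CPM in the hashtags of PFF + VH and at 47.3, 17.7, 31.3 and 119.9 CPM in hashtags 1, 2, 4 and 5 of PFF + AZD1480. The groups overlapped, and the log2 difference of −1.45 (SE 0.43) had an adjusted p of 0.0791. It was called without PFF + VH hashtag 4 (adjusted p = 0.0374) and without PFF + AZD1480 hashtag 5 (adjusted p = 0.0191), which held 11 lymphocytes. It was also called without the filter on low counts (adjusted p = 0.00684), with hashtag number as a block (0.0485) and with MULTIseqDemux hashtag calls (0.0399). The summed microglial markers in the same lymphocytes were at 946 to 1580 CPM in PFF + VH and at 531 to 700.1 CPM in PFF + AZD1480, and the counts of T, NK and B cells are given above. Their part in this difference was not tested. Pdha1 was at 48.5, 37.1, 60.1 and 62.4 CPM against 104, 79.8, 80.6 and 103 CPM, which did not overlap, as was so for 8.83% of all genes tested there (log2 difference 0.74, adjusted p = 0.268). Aldoa had a log2 difference of 0.47 (adjusted p = 0.304).

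Whether AZD1480 and VH differed by another amount in border macrophages or lymphocytes than in microglia was tested as an interaction. All 33 members were tested in each, and none was called by edgeR, against backgrounds of 0.796% for border macrophages and 1.62% for lymphocytes. At an unadjusted p under 0.05 there were 6 and 4 members, against 1059 of 11938 and 1120 of 12194 of all genes. The Gapdh difference between treatments was 0.58 on the log2 scale further up in border macrophages than in microglia (SE 0.24, adjusted p = 0.423), and the Ldhb difference 1.13 further down in lymphocytes (SE 0.38, adjusted p = 0.120). The latter was called without PFF + VH hashtag 4 (adjusted p = 0.0253) or without PFF + AZD1480 hashtag 5 (adjusted p = 0.0194). A call in microglia and none in the other classes therefore does not show that the classes differ.

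Single libraries were then set side by side, for members with a mean of at least 20 CPM, without a test. Between Monomer and PBS, 0 of 26 members in microglia passed 1.5-fold (background 0.347% of genes), 1 of 25 in border macrophages (background 10.6%) and 1 of 26 in lymphocytes (background 10.1%). These were Pdha1 in border macrophages, at 16.4 against 35.4 CPM, and Pfkl in lymphocytes, at 41.4 against 21.1 CPM. Between PFF + VH and Monomer, Gapdh was the 1 microglial member past 1.5-fold, at 469 against 311 CPM or 1.51-fold higher, with a background of 2.46%. In border macrophages 3 members were higher and 2 lower (background 15.4%, with 8.34% higher and 7.06% lower), and Ldhb was 2.48-fold higher. In lymphocytes 2 were higher and 2 lower (background 21.4%, with 9.75% higher and 11.7% lower), with Hk2 5.27-fold and Ldhb 4.18-fold higher, in the library with the highest share of microglial markers. Between PFF + AZD1480 and Monomer, no microglial member passed (background 2.60%), 2 were higher and 1 lower in border macrophages (background 12.7%, with 6.73% higher and 5.93% lower), and 2 were higher in lymphocytes (background 16.1%, with 9.65% higher and 6.49% lower), namely Hk2 (3.14-fold) and Ldhb (1.93-fold). Over the 26 microglial members, the median log2 ratio of PFF + VH to Monomer was 0.12, and that of all genes was −0.10.

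Further genes of the same pathways, chosen by function, served as a wider view. Of 37 other glycolysis and pyruvate genes, 20 were tested between border macrophages and microglia, with 2 higher and 3 lower in border macrophages, a share of 25% that is under the 28.5% of all genes. None of 6 other pentose phosphate genes tested was called (edgeR, with 1 at an unadjusted p under 0.05), and of 15 genes of the HIF pathway tested, 1 was higher and 8 were lower (60%). The fructose transporter gene Slc2a5 (GLUT5) was at 7.95 to 29.7 CPM over the 4 libraries in border macrophages and at 134 to 225 CPM in microglia, a log2 difference of −3.14 (SE 0.25, adjusted p = 5.64e-19). Slc2a6, a transporter gene of lysosomes, was at 4.35 to 6.82 CPM in microglia of the hashtags and had no UMI in border macrophages of 8 of the 9, and no fold is given for so few counts. Vhl, whose product marks HIF proteins for degradation, was at 3.87 to 15.9 CPM against 27.9 to 29.6 CPM (log2 difference −1.76, SE 0.35, adjusted p = 3.09e-05). Egln3, an oxygen-sensing prolyl hydroxylase gene, had no UMI in border macrophages of the 9 hashtags and 1.94 to 7.31 CPM in microglia of the libraries, and no fold is given for it. It could pass the filter on low counts only through microglia, and it is among the 15 HIF pathway genes behind the 60%. In lymphocytes 2 of 20 other glycolysis and pyruvate genes were higher and 7 lower (45%, against 47.0% of all genes), 3 of 6 pentose phosphate genes were higher (50%), and of 17 genes of the HIF pathway 7 were higher and 5 lower (70.6%). Slc2a5 was lower there by a log2 difference of −3.19 (adjusted p = 7.04e-14), and Ddit4, a hypoxia-induced inhibitor of mTORC1, was higher by 2.55 (adjusted p = 1.96e-05), at 13.2 to 21.5 CPM against 2.48 to 2.96 CPM. The pyruvate dehydrogenase phosphatase gene Pdp2 was lower in the hashtags (log2 difference −2.42, adjusted p = 0.00199), although Pdp2 in the PBS library was at 15.2 CPM in lymphocytes and 12.8 CPM in microglia. Between PFF + AZD1480 and PFF + VH in microglia, 2 of 26 other glycolysis and pyruvate genes were higher and 3 lower (19.2%, under the 26.7% of all genes), 2 of 7 pentose phosphate genes were lower (28.6%), and 1 of 18 genes of the HIF pathway was higher and 2 lower (16.7%). The aldolase gene Aldoc (log2 difference −0.86, adjusted p = 0.0493) and the enolase gene Eno2 (0.71, adjusted p = 0.0494), both at most 2.03 CPM in microglia of the 4 libraries, lay near the threshold. The mitochondrial gene Higd1a, at 44.9 CPM with VH and 34.9 CPM with AZD1480, had a log2 difference of −0.40 (adjusted p = 0.00249), and Prps1, which makes the ribose donor of nucleotide synthesis, one of −0.33 (adjusted p = 0.0195).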

How the data were processed

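The deposited matrices give whole UMI counts for every gene in every cell. Per the methods and file headers, the authors made them with Cell Ranger on mm10 from 10x 3′ libraries. The matrix header gives version 7.0.1, and the methods give another version. Hashtag counts were deposited in the same matrices for the PFF libraries. Cells with 500 to 15000 UMIs, 250 to 5000 genes and at most 10% mitochondrial UMIs were kept, the filters of the study. Cells outside these limits or without a class were left out. Hashtags were assigned with HTODemux in Seurat 5.3.0 (positive quantile 0.99), and cells with 1 hashtag entered the hashtag values and tests. Library values include every cell of a class, also those with no hashtag or several. Nothing in the labels says that a hashtag is a separate sample, but their number matches the replicates given in the methods. P-values measure only the spread between hashtags.

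UMIs were summed per hashtag and class (at least 10 cells, so lymphocytes of PFF + AZD1480 hashtag 3, with 6 cells, were left out) and tested with edgeR 4.0.16 (quasi-likelihood test, TMM scaling, filterByExpr), with Benjamini-Hochberg adjustment over all genes and a threshold of 0.05. Class comparisons and interactions were blocked on hashtag. CPM of a class in a library carries an exact Poisson 95% interval, which covers counting error only. Scripts were tested on simulated data. Alternatives were DESeq2 1.42.0, other scaling, filters, class rules, hashtag calls, doublet scores, depth windows and leaving out each hashtag. Doublets across hashtags were left out of the hashtag values only, and stay in the library values. Scrublet in scanpy 1.11.5 called 0 cells at its automatic threshold in every library, so that the 4.49% to 4.95% of cells with the highest scores were left out as an alternative added after seeing the data.

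The members and lists were chosen with earlier results of these data known. Members called in a comparison were named, the 8 of largest absolute log2 difference with full values, together with genes that share a step. Gpi1 and Pfkp in border macrophages, the window values of members not called there, and the lymphocyte members under an unadjusted p of 0.05 were added after their values were seen. Reads that match a gene and a near-identical copy, as for Aldoa, Gapdh, Eno1 and Ldha, could be lost or split in the counting. Promoters came from RefSeq on GRCm38.p6.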

Additional observations from a re-analysis of the deposited data

Results flagged for a closer look

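In 124 groups of 4 or 5 hashtags, the highest or lowest value was set against the others by Dixon's test, which chance passes in about 1 group in 20 (6.2 groups). It was passed in 3. Pgk1 in microglia was at 62.11 CPM in PFF + VH hashtag 3, with the other hashtags at 52.12 to 53.62 CPM. Mpc1 in microglia was at 206 CPM in the same hashtag, with the others at 237.4 to 242 CPM. Taldo1 in lymphocytes was at 85.66 CPM in PFF + AZD1480 hashtag 5, which held 11 lymphocytes and 58369 UMIs, with the others at 170.4 to 177.2 CPM.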

How the results depend on the processing

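Over all alternatives run, no called member reversed its direction. Of the calls, 10 of 14 in border macrophages, 13 of 22 in lymphocytes and 4 of 14 in microglia between AZD1480 and VH held throughout. Counts of calls that moved by over 1.5 times were as follows. For border macrophages against microglia, PFF + VH hashtags alone gave 1824 genes in place of 3136. Between AZD1480 and VH in microglia, cells of 2000 to 6000 UMIs gave 4 members in place of 14 and 1042 genes in place of 3650. In border macrophages, where 30 genes were called, there were 83 without the filter on low counts, 19 with the replicate block, 1 with the stricter class rule, 1 in cells of 2000 to 6000 UMIs and 16 to 32 when 1 hashtag was left out. In lymphocytes, 1 member in place of 0, Ldhb, was called without the filter, with the replicate block and with MULTIseqDemux hashtag calls, and 0 to 1 members when 1 hashtag was left out. The 96 genes called there became 216 without the filter, 58 with hashtag values centred within cells, 22 with the stricter class rule and 60 to 111 when 1 hashtag was left out. For the interaction in border macrophages, the 95 genes became 47 by DESeq2, 24 with no replicate block, 167 with MULTIseqDemux calls, 16 with the stricter class rule, 15 in the 2000 to 6000 UMI window and 54 to 105 when 1 hashtag was left out. In lymphocytes the 197 genes became 127, 101 with no block, 47 with the stricter rule, 72 in the window and 131 to 193, and 0 to 1 members were called. Members past 1.5-fold between Monomer and PBS numbered 2, and 6 with the stricter class rule, 5 with each cell weighing the same and 0 at a mean of at least 50 CPM. Those between PFF + VH and Monomer fell from 10 to 3, and those between PFF + AZD1480 and Monomer from 5 to 1, at 50 CPM. The mean summed level of the members in microglia, 2814 CPM, was 2928 without ribosomal-overlapping genes, Malat1 and mitochondrial genes. The cause of these changes was not tested.

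Hashtags with the same number share only a number. Over 10451 genes, the deviations of same-numbered hashtags correlated at 0.0392, 0.109, −0.0501 and 0.0564. With the number as a replicate block, Hk1 and Slc2a3 lost their call in microglia. The small classes had 11 to 81 border macrophages and 11 to 67 lymphocytes per hashtag used, which limits the depth of their comparisons.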
